A study of Mus musculus with 20 samples.

Results

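The SOCS family comprises 8 genes, Cish and Socs1 to Socs7, whose products damp cytokine signalling. All 8 were found by symbol among the 45706 genes of the deposited table, and all 8 passed the filter on low values that left 17160 genes for testing. A cytokine that binds its receptor activates the receptor's JAK kinases, which phosphorylate STAT transcription factors, and the STATs switch on target genes that include Cish, Socs1, Socs2 and Socs3. The SOCS proteins then bind phosphorylated receptors or JAKs through an SH2 domain, and their SOCS box recruits elongins and a cullin ubiquitin ligase, which closes a negative feedback loop. Cish and Socs2 are known targets of STAT5, which several cytokines activate through JAK2 in blood cells.

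RNA was sequenced from mouse bone marrow cells sorted into multipotent progenitors of type 2 (MPP2) or type 3 (MPP3) and long-term haematopoietic stem cells (LT-HSC), from Hopx knockout (KO) and Hopx wild-type (WT) animals. There were 3 KO MPP2, 3 KO MPP3 and 3 KO LT-HSC libraries, against 3 WT MPP2, 4 WT MPP3 and 4 WT LT-HSC libraries. All animals had the C57BL/6 background and were 8 weeks old. The labels do not give the design of the knockout allele, the sort gates, which libraries share an animal or whether animals were pooled, so p-values measure only the spread between these libraries, which may be technical.

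Reads assigned to genes ranged from 11163345 to 15189909 per library. Genes with a read ranged from 14931 in KO MPP2 replicate 3 to 20831 in WT MPP3 replicate 2. They numbered 15826 in WT MPP3 replicate 3 and 16220 in KO MPP2 replicate 1. The part of these low numbers of genes in the extreme values of members in these libraries was not tested. Hopx, a homeodomain-only protein gene, had 0 reads in all 9 KO libraries and 11.01 to 61.2 normalized counts in 10 of the 11 WT libraries. The library labelled WT LT-HSC replicate 4 also had 0 Hopx reads, among 14127479 reads in genes, and goes against its label. Sex, read from Xist and Y-linked genes, was 2 females and 1 male in every KO group, whereas WT MPP2 had 1 female and 2 males and WT MPP3 and WT LT-HSC had 1 female and 3 males each. The summed level of 8 stem cell markers, among them Procr and Hlf, was 1365 to 5096 normalized counts in MPP2 and MPP3 and 7682 to 13105 in LT-HSC, and Fgd5 was at 0 in KO MPP2. WT MPP2 replicate 3 stood apart, with a summed level of 5 B cell markers of 178226 normalized counts, against 563 and 726 in the other WT MPP2 libraries. Mature neutrophil markers, 8 in number, summed to 25447 normalized counts in KO LT-HSC replicate 1 and 17386 in WT LT-HSC replicate 2, and to 56.2 to 518 in the other LT-HSC libraries. Among progenitors they summed to 8033 in WT MPP2 replicate 2 and to 26404 and 19299 in replicates 2 and 3 of WT MPP3. In the other MPP2 and MPP3 libraries they summed to 64.0 to 976. Of the 8, Ltf was at 0 in KO LT-HSC, KO MPP2 and WT MPP2, Ngp in KO MPP2 and Retnlg in KO MPP3. Erythroid markers, 5 in number, summed to 21725 normalized counts in KO LT-HSC replicate 2, against 749 and 304 in the other KO LT-HSC libraries. They summed to 325 to 3730 in WT LT-HSC and to 195 to 71940 in MPP2 and MPP3.

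Promoter windows of 300 bases, from 250 bases before to 50 bases after the transcription start, were matched in the RefSeq table (GRCm38.p6) for Cish, Socs1, Socs3 and Socs4. They were searched for TTCNNNGAA, the palindrome that STAT5 is known to bind, which reads the same on both strands. Of 32851 windows of this length in the table, 8.30% held at least 1 match and 0.457% held at least 2. The windows of Cish, Socs3 and Socs1, the STAT targets named above that had a window, are shown 5′ to 3′ on the gene's strand. Matches are in capitals.
Cish: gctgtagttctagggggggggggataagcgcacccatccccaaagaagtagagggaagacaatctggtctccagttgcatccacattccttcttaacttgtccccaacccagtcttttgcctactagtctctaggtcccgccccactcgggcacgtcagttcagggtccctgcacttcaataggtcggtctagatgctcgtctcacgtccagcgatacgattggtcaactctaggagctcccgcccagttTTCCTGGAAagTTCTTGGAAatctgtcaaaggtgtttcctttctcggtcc
Socs3: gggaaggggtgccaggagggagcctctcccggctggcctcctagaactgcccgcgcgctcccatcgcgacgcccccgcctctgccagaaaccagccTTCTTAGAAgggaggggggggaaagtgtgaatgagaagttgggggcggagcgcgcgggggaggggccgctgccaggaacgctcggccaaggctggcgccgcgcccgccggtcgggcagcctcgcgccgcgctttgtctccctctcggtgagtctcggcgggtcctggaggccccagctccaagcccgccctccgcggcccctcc
Socs1: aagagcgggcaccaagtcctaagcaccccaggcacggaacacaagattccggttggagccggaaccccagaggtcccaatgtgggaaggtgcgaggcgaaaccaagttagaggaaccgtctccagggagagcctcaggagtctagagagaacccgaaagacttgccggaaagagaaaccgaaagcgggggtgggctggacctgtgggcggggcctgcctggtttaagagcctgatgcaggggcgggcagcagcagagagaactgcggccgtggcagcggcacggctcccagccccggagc
The Cish window (chr9:107296409-107296708, plus strand) held 2 matches, TTCCTGGAA beginning at the start site (chr9:107296659-107296667) and TTCTTGGAA beginning 11 bases further on (chr9:107296670-107296678). The Socs3 window (chr11:117969317-117969616, minus strand) held 1 match, TTCTTAGAA (chr11:117969512-117969520). The Socs1 window (chr16:10785487-10785786, minus strand) and the Socs4 window (chr14:47276670-47276969, plus strand) held none. The Cish and Socs3 windows lie inside the annotated ranges of these genes given below (GENCODE M21). The start sites used for them are therefore not the outermost annotated ones, and other starts were not searched. A match is a run of letters and was not shown here to be bound.

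Per kilobase of the longest coding transcript, Cish had the highest mean level over the 20 libraries, at 238 normalized counts per kilobase. It was followed by Socs2 at 125, Socs4 at 99.4, Socs6 at 98.7, Socs5 at 80.0, Socs3 at 61.5, Socs1 at 28.3 and Socs7 at 17.8 normalized counts per kilobase. The order depends on the length used: per kilobase of all annotated exons Socs2 had 29.2 and ranked sixth, while Cish stayed first at 106. Across libraries Socs2 ran from 0 to 919 normalized counts and Socs3 from 2.86 to 733, while Socs6 stayed between 341 and 923.

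**Figure D1:**
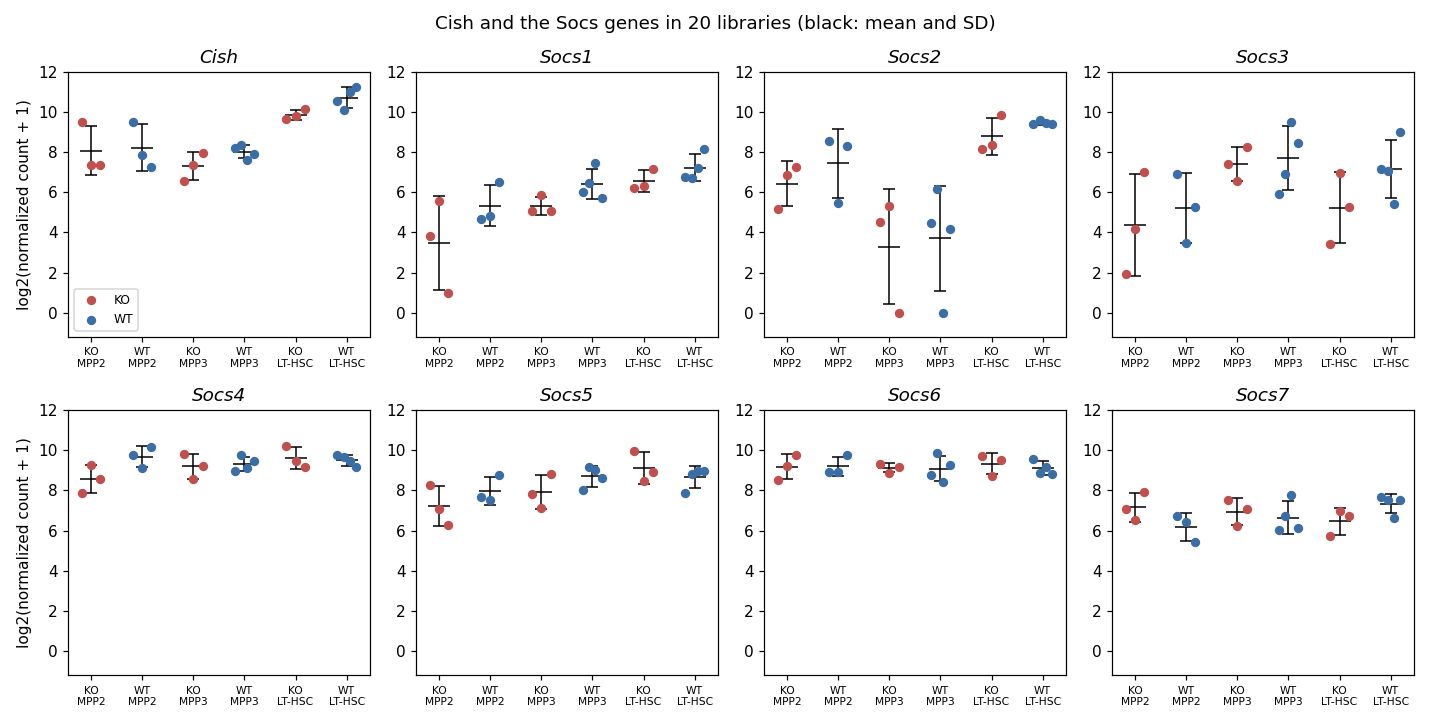
Each panel plots 1 gene, with log2(normalized count + 1) on the vertical axis and the 6 groups on the horizontal axis; points are libraries (KO red, WT blue) and black bars the mean and SD. All 13 MPP2 and MPP3 points of Cish lie below all 7 LT-HSC points, and Socs2 has 1 point at 0 in KO MPP3 and 1 in WT MPP3.

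Cish encodes CIS, which binds phosphorylated cytokine receptors and competes with STAT5 for them. The gene lies at chr9:107296026-107302784 on the plus strand (GRCm38, GENCODE M21). It was lower in both progenitor types than in stem cells. In MPP2, Cish had 712, 164 and 163 normalized counts in the KO libraries and 732, 231 and 152 in the WT libraries. In MPP3, it had 93.4, 161 and 247 in KO and 297, 329, 193 and 239.9 in WT. In LT-HSC, it had 811, 885 and 1124 in KO and 1473, 1101, 2035 and 2432 in WT, the last value from the library labelled WT LT-HSC replicate 4. The highest progenitor library, WT MPP2 replicate 1, was therefore below the lowest stem cell library, KO LT-HSC replicate 1, and in each genotype 1 MPP2 library stood well above the other two.

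The mean level of Cish was 223 normalized counts over 7 MPP3 libraries and 1409 over 7 LT-HSC libraries, a ratio of 0.158. Averaged over genotypes, the MPP3 minus LT-HSC difference was -2.64 (SE 0.38) on the log2(normalized count + 1) scale, with a limma adjusted p of 0.000178. The call held in all 30 refits with other settings or with 1 library left out, with differences of -2.80 to -2.45. In WT alone the MPP3 minus LT-HSC difference was -2.69 (SE 0.50), limma adjusted p 0.00358, and in KO alone it was -2.58 (SE 0.57), limma adjusted p 0.0239. The KO call was lost in 8 of 30 refits. Among them were those without KO LT-HSC replicate 1, 2 or 3 and without KO MPP3 replicate 1 or 2, with limma adjusted p of up to 0.126. Another was the fit with runs of library numbers as a covariate (limma adjusted p 0.0642). The runs are groups of nearby library numbers, formed here from the sample titles, and the labels do not give their meaning. Within such runs, 5 comparisons of 1 genotype gave MPP3 minus LT-HSC differences of Cish of -3.49 to -1.89 on the log2 scale. They reuse the same libraries, with 1 or 2 on each side. Their sign was fixed in advance, because every MPP3 library lay below every LT-HSC library.

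Between MPP2 and LT-HSC, Cish differed by -2.15 (SE 0.39) averaged over genotypes, limma adjusted p 0.0037, with means of 359 normalized counts over 6 MPP2 libraries and 1409 over 7 LT-HSC libraries. The call was lost in 1 of 30 refits, edgeR on 18 libraries, at an adjusted p of 0.0768. In WT alone the MPP2 minus LT-HSC difference of -2.51 (SE 0.54) was called at a limma adjusted p of 0.0329, while in KO alone it was -1.80 (SE 0.57) and was not called (limma adjusted p 0.12). The WT call was lost in 8 refits, including those without WT MPP2 replicate 2 or 3, without WT LT-HSC replicate 2 or 3, and without the one labelled WT LT-HSC replicate 4. Leaving out that last library gave a limma adjusted p of 0.105. Without KO MPP2 replicate 1, the KO difference was -2.50 and was called at a limma adjusted p of 0.0444. Within runs of library numbers, the MPP2 minus LT-HSC differences of Cish ran from -3.73 to -0.25 in 5 comparisons. Their sign was again fixed, as every MPP2 library lay below every LT-HSC library. The MPP2 minus MPP3 difference was 0.48 (SE 0.39), with a 95% interval of -0.34 to 1.31, and was not called.

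In bulk libraries, fewer cells that express a gene and less RNA of it per cell cannot be told apart. The stem cell marker sums given above, like the levels of Cish, were lower in every MPP2 and MPP3 library than in any LT-HSC library. Granulocyte and monocyte precursor markers, 6 in number with Mpo and Elane among them, moved the other way between MPP3 and LT-HSC: all 6 had reads in MPP3 and summed to 107480 to 142047 normalized counts in KO MPP3 and 18198 to 134265 in WT MPP3, against 1637 to 1648 in KO LT-HSC and 1030 to 3103 in WT LT-HSC, where Ctsg was at 0. In MPP2 they summed to 1421 to 23524 normalized counts in KO and 957 to 68179 in WT, so some MPP2 libraries with low Cish were at the level of LT-HSC. The part of these markers in the Cish result was not tested.

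Reads of Cish are uncertain in a further respect. The antisense gene Gm17041 (chr9:107300380-107301838, minus strand) lies inside it, and the pseudogene Gm17040 (chr9:107292435-107297192, minus strand) overlaps its start. No source used here states that counting used the strand, so reads of these genes cannot be told apart with certainty. Gm17041 had 235, 54.2 and 41.3 normalized counts in KO MPP2 and 191, 60.04 and 23.6 in WT MPP2. It had 17.8, 46.3 and 69.1 in KO MPP3 and 82.7, 99.3, 77.5 and 73.0 in WT MPP3. In LT-HSC it had 235, 235 and 309.5 in KO and 385, 330.4, 491 and 659 in WT. The order of the populations is that of Cish: Gm17041 was lower in MPP3 than in LT-HSC, with a difference of -2.57 (SE 0.46), limma adjusted p 0.00149, and lower in MPP2 than in LT-HSC, with a difference of -2.22 (SE 0.48), limma adjusted p 0.0107. Summed over the 20 libraries, Cish had 14267 reads, Gm17041 3913 and Gm17040 705.

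Socs2, which limits growth hormone receptor signalling, showed the largest population difference of the family. It lies at chr10:95385362-95417180 on the minus strand. In MPP2, Socs2 had 35.2, 115 and 154 normalized counts in KO and 373, 43.0 and 320.1 in WT. In MPP3, it had 22.0, 38.7 and 0 in KO and 21.2, 70.4, 0 and 17.1 in WT. In LT-HSC, it had 283, 327 and 919 in KO and 685, 774, 702 and 671 in WT. The highest MPP3 library, WT MPP3 replicate 2, was below the lowest LT-HSC library, KO LT-HSC replicate 1, whereas MPP2 overlapped both MPP3 and LT-HSC. The 2 libraries with 0 reads were KO MPP3 replicate 3 and WT MPP3 replicate 3, where 0 reads allow up to 2.73 and 2.67 normalized counts. The 4 WT LT-HSC libraries lay close together, and of the KO LT-HSC libraries 2 lay below them and 1 above.

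Mean Socs2 was 24.2 normalized counts over 7 MPP3 libraries and 623 over 7 LT-HSC libraries, a ratio of 0.0389. The MPP3 minus LT-HSC difference averaged over genotypes was -5.64 (SE 0.91) on the log2(normalized count + 1) scale, limma adjusted p 0.00052, and it was called in all 30 refits, at -6.14 to -4.08. In WT alone the difference was -5.77 (SE 1.19), limma adjusted p 0.00817, and was lost in 1 of 30 refits, edgeR on 18 libraries at an adjusted p of 0.0813. In KO alone it was -5.50 (SE 1.37), limma adjusted p 0.0462, and that call was lost in 19 of 30 refits. These included refits without any 1 of KO LT-HSC replicates 1 to 3, KO MPP3 replicates 1 and 3, KO MPP2 replicate 2, WT MPP2 replicate 1, WT LT-HSC replicates 1 to 3, WT MPP3 replicates 1 and 4, or the library labelled WT LT-HSC replicate 4. The highest limma adjusted p was 0.249, without KO MPP3 replicate 3, and with the runs of library numbers as a covariate it was 0.083, so the KO call was lost there too. Within runs of library numbers, the MPP3 minus LT-HSC difference of Socs2 ran from -7.30 to -3.30 in 5 comparisons. The sign was fixed by the separation of the MPP3 and LT-HSC libraries.

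Socs2 was also higher in MPP2 than in MPP3, by 3.45 (SE 0.94) averaged over genotypes, limma adjusted p 0.034. The means were 173 normalized counts over 6 MPP2 libraries and 24.2 over 7 MPP3 libraries, and the difference was above 0 in 5 of 5 comparisons within runs, from 0.65 to 7.28. This call was lost in 9 of 30 refits, with adjusted p of up to 0.0978. With the runs of library numbers as a covariate the difference was 3.03, and the call was lost at a limma adjusted p of 0.0575. Among these were limma refits without WT MPP2 replicate 1 or 3, KO MPP2 replicate 2 or 3, or KO MPP3 replicate 3. The MPP2 minus LT-HSC difference of -2.18 (SE 0.94) was not called (limma adjusted p 0.174), with a 95% interval of -4.17 to -0.20. The summed level of 5 megakaryocyte markers, Pf4 and Itga2b among them, also separated MPP2 from MPP3: it was 12226 to 73420 normalized counts in KO MPP2 and 2963 to 45928 in WT MPP2, against 735 to 983 in KO MPP3, where Gp1bb was at 0, and 449 to 2051 in WT MPP3. In LT-HSC it was 8473 to 36539 in KO and 3566 to 23639 in WT, above every MPP3 library. The part of these markers in the Socs2 differences was not tested.

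**Figure D2:**
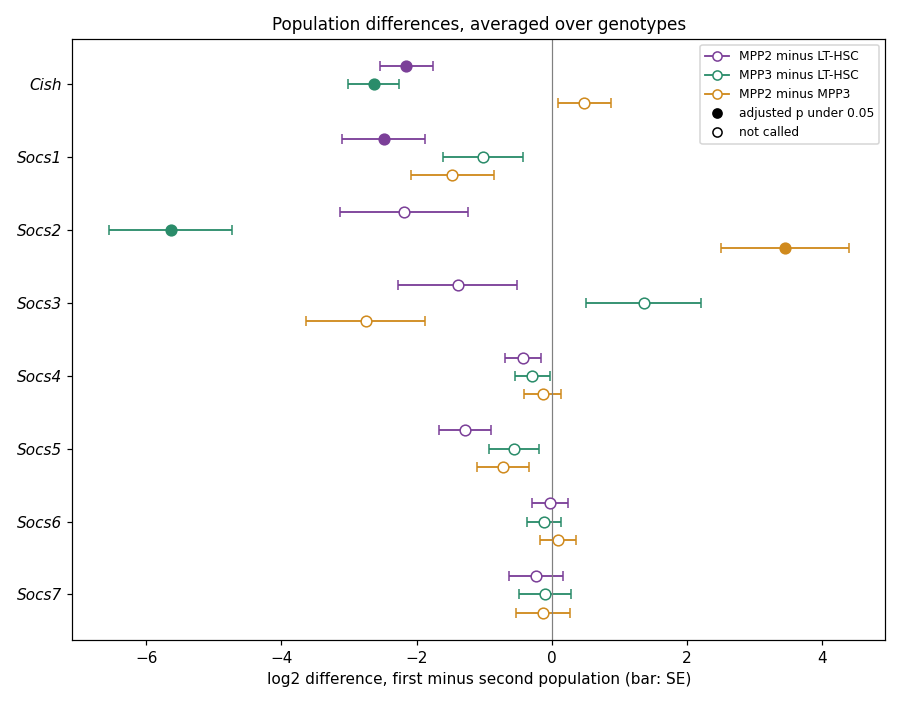
Log2 differences between populations, averaged over genotypes, for each of the 8 genes; the horizontal axis is the first population minus the second on the log2(normalized count + 1) scale, bars are SE, and filled points passed an adjusted p of 0.05. Filled points are Cish and Socs1 for MPP2 minus LT-HSC, Cish and Socs2 for MPP3 minus LT-HSC, and Socs2 for MPP2 minus MPP3.

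Socs1 and Socs3 carry a kinase inhibitory region that blocks JAKs directly. Socs1 is the main brake on interferon gamma signalling and lies at chr16:10782240-10785536 on the minus strand. In MPP2, Socs1 had 13.3, 47.1 and 0.982 normalized counts in KO and 24.5, 27.0 and 91.0 in WT. In MPP3, it had 32.5, 56.7 and 32.7 in KO and 64.6, 88.0, 173 and 51.4 in WT. In LT-HSC, it had 73.0, 77.3 and 144 in KO and 106, 104, 149.6 and 287 in WT. The single highest library was that labelled WT LT-HSC replicate 4, and KO MPP2 replicate 3 held 1 read. Within each genotype the MPP2 libraries lay below the LT-HSC libraries, with an overlap across genotypes through WT MPP2 replicate 3.

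Averaged over genotypes, Socs1 was lower in MPP2 than in LT-HSC, with a difference of -2.49 (SE 0.61), limma adjusted p 0.0201, with means of 34.0 normalized counts over 6 MPP2 libraries and 135 over 7 LT-HSC libraries. The call was lost in 5 of 30 refits, namely both edgeR fits (adjusted p 0.0701 on 20 libraries and 0.189 on 18) and the limma refits without WT MPP2 replicate 1, WT MPP2 replicate 2 or KO LT-HSC replicate 3. With the library labelled WT LT-HSC replicate 4 left out, the difference was -2.33, limma adjusted p 0.0445. Without WT MPP2 replicate 3 it was -2.78, limma adjusted p 0.0122. Within runs of library numbers, 5 comparisons of 1 genotype gave Socs1 differences of -2.41 to -0.71. Their sign was fixed, because the MPP2 libraries lay below the LT-HSC libraries within each genotype. The MPP3 minus LT-HSC difference was -1.02 (SE 0.59), with a 95% interval of -2.25 to 0.22, and was not called. It lay below 0 in 5 of 5 comparisons within runs. In KO that sign was fixed, as all KO MPP3 libraries lay below all KO LT-HSC libraries.

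Socs3, the feedback inhibitor of the interleukin 6 and granulocyte colony-stimulating factor receptors, lies at chr11:117966079-117970047 on the minus strand. In MPP2, it had 2.86, 16.9 and 129.7 normalized counts in KO and 121, 10.0 and 37.8 in WT. In MPP3, Socs3 had 168, 94.4 and 304 in KO and 59.5, 119, 733 and 348 in WT. In LT-HSC, it had 9.80, 123 and 38.1 in KO and 140.1, 134, 42.4 and 509 in WT. Libraries of the same group lay far apart, all populations overlapped, and the highest values were in WT MPP3 replicate 3 and, among stem cells, the library labelled WT LT-HSC replicate 4. The MPP2 minus MPP3 difference, -2.75 (SE 0.88), was not called (limma adjusted p 0.0714), with means of 53.0 normalized counts over 6 MPP2 libraries and 261 over 7 MPP3 libraries. WT MPP3 replicate 3, with the highest Socs3, is also one of the libraries with mature neutrophil markers. Other libraries with high sums of these markers had less Socs3. It was 9.80 in KO LT-HSC replicate 1 and 134 in WT LT-HSC replicate 2. It was 10.0 in WT MPP2 replicate 2 and 119 in WT MPP3 replicate 2. The library labelled WT LT-HSC replicate 4, with Socs3 at 509, had a marker sum of 518. The part of these markers was not tested. The MPP2 minus MPP3 difference of Socs3 was below 0 in 5 of 5 comparisons within runs, from -5.45 to -1.22. It was called by DESeq2 (adjusted p 0.0499) and by limma without KO MPP2 replicate 3 (adjusted p 0.0195).

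Socs4 and Socs5, known as regulators of the epidermal growth factor receptor, and Socs6 and Socs7, which act on signalling through KIT and insulin receptor substrates, were called in none of the population comparisons. Socs5 had 311, 133 and 77.6 normalized counts in KO MPP2 and 201, 182 and 441 in WT MPP2. In MPP3, Socs5 had 229, 139 and 455 in KO and 257, 579, 516 and 397 in WT. In LT-HSC, Socs5 had 1007, 350.5 and 477 in KO and 229.9, 456, 504.01 and 499 in WT. KO LT-HSC replicate 1 was the highest library and KO MPP2 replicate 3 the lowest, and the populations overlapped. The MPP2 minus LT-HSC difference of Socs5 averaged over genotypes was -1.28 (SE 0.38), 95% interval -2.09 to -0.47, and missed the threshold at a limma adjusted p of 0.0508. It passed in 9 of 30 refits, including DESeq2 (adjusted p 0.0215) and the limma refit without WT MPP2 replicate 3 (0.028).

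Socs4 averaged 411 ± 196 normalized counts in KO MPP2 and 853 ± 294 in WT MPP2 (SD, n = 3 each). In MPP3, Socs4 averaged 624 ± 264 in KO (SD, n = 3) and 655 ± 165 in WT (SD, n = 4). In LT-HSC, Socs4 averaged 816 ± 322 in KO (SD, n = 3) and 732 ± 129 in WT (SD, n = 4). The lowest mean of Socs4 was that of KO MPP2 and the highest that of WT MPP2, and neighbouring groups in the order of means did not differ beyond their spread. Socs6 group means lay closer still, between 560.0 ± 84.8 in KO MPP3 (SD, n = 3) and 666 ± 214 in KO LT-HSC (SD, n = 3). Its MPP3 minus LT-HSC difference averaged over genotypes had a 95% interval of -0.66 to 0.42, and its MPP2 minus LT-HSC difference one of -0.59 to 0.53. Socs7 group means ran from 77.1 ± 32.8 in WT MPP2 (SD, n = 3) to 168 ± 47.9 in WT LT-HSC (SD, n = 4), with overlapping ranges between all groups next to each other in the order of means.

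Ordered from the lowest mean, Cish had 167 ± 77.0 normalized counts in KO MPP3 (SD, n = 3), 265 ± 60.2 in WT MPP3 (SD, n = 4), 347 ± 317 in KO MPP2 (SD, n = 3), 372 ± 314 in WT MPP2 (SD, n = 3), 939.9 ± 163 in KO LT-HSC (SD, n = 3) and 1760.0 ± 590.0 in WT LT-HSC (SD, n = 4). Between neighbours in this order, WT MPP2 and KO LT-HSC had ranges that did not overlap, and the ranges of all other neighbours overlapped. The intervals of mean ± SD lay apart for WT MPP2 and KO LT-HSC and also for KO LT-HSC and WT LT-HSC. The latter difference was not called by limma. The order of Socs2 was the same, with 20.3 ± 19.4 normalized counts in KO MPP3 (SD, n = 3), 27.2 ± 30.2 in WT MPP3 (SD, n = 4), 101 ± 60.6 in KO MPP2 (SD, n = 3), 245 ± 177 in WT MPP2 (SD, n = 3), 509 ± 355 in KO LT-HSC (SD, n = 3) and 708 ± 45.7 in WT LT-HSC (SD, n = 4). From the lowest mean, Socs1 was ordered KO MPP2, KO MPP3, WT MPP2, WT MPP3, KO LT-HSC, WT LT-HSC, and Socs3 was ordered KO MPP2, WT MPP2, KO LT-HSC, KO MPP3, WT LT-HSC, WT MPP3. For all members other than Cish, every pair of neighbouring groups overlapped in range and did not differ beyond the spread.

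Counted over the family, 2 of the 8 members were lower in MPP2 than in LT-HSC averaged over genotypes (Cish and Socs1) and none higher, while 7.32% of all genes tested were called, 5.08% lower and 2.24% higher. In MPP3 against LT-HSC, 2 of 8 were lower (Cish and Socs2) and none higher, beside 7.4% of genes called, 4.18% lower and 3.22% higher. In MPP2 against MPP3, 1 of 8 was higher (Socs2) and none lower, beside 6.88% of genes called, 2.24% higher and 4.64% lower. The median log2 difference of the 8 members was -1.34 for MPP2 minus LT-HSC, -0.43 for MPP3 minus LT-HSC and -0.13 for MPP2 minus MPP3, and the medians over all genes were -0.11, 0.00 and -0.09. In WT alone, 1 member (Cish) was lower in MPP2 than in LT-HSC, beside 0.833% of genes called, 0.554% lower and 0.28% higher. In MPP3 against LT-HSC in WT, 2 members (Cish and Socs2) were lower, beside 3.97% of genes called, 2.47% lower and 1.5% higher, and between MPP2 and MPP3 in WT 0 were called, beside 0.431% of genes, 0.256% higher and 0.175% lower. In KO alone, 0 members were called between MPP2 and LT-HSC, beside 1.2% of genes, 1.08% lower and 0.117% higher. In MPP3 against LT-HSC in KO, 2 members (Cish and Socs2) were lower, beside 1.91% of genes called, 0.997% lower and 0.909% higher, and between MPP2 and MPP3 in KO 0 were called, beside 2.79% of genes, 2.12% lower and 0.67% higher. In the 3 comparisons without a limma call, edgeR also called 0 members, and DESeq2 called 1, Socs5 between MPP2 and LT-HSC in KO (adjusted p 0.0377). Beside the limma counts of 0, unadjusted p under 0.05 was reached by 1 of 8 members between MPP2 and MPP3 in WT (9.57% of all genes), by 4 between MPP2 and LT-HSC in KO (17.2% of all genes) and by 2 between MPP2 and MPP3 in KO (17.5% of all genes).

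The series compares Hopx knockout with wild-type cells of each population. In the KO libraries 0 of the 8 members were called against WT in MPP2 (0.0117% of genes called), in MPP3 (0.00583%) or in LT-HSC (0.00583%), by limma. The difference averaged over the populations gave 0 of 8 calls (0.0117% of genes), and the interaction test, which asks if the effect of the knockout depends on the population, also gave 0 (0.0% of genes). By edgeR and DESeq2 0 members were called as well. At an unadjusted p under 0.05, limma found 1 of 8 members in MPP2 (7.88% of all genes), 0 in MPP3 (2.02%), 0 in LT-HSC (2.66%), 1 in the average (5.03%) and 0 in the interaction test (3.07%). The members' median KO minus WT log2 difference was -0.81 in MPP2, -0.36 in MPP3 and -0.67 in LT-HSC, against medians of -0.10, 0.03 and -0.03 over all genes.

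Cish averaged 939.9 ± 163 normalized counts in KO LT-HSC (SD, n = 3) and 1760.0 ± 590.0 in WT LT-HSC (SD, n = 4). KO LT-HSC replicate 3, the highest KO library, lay above WT LT-HSC replicate 2, the lowest WT library. The ranges therefore overlapped, though the intervals of mean ± SD did not. The log2 difference was -0.85 (SE 0.54), with a 95% interval of -1.98 to 0.27, and it was -0.68 when the library labelled WT LT-HSC replicate 4, which has no Hopx reads either, was left out. In MPP3 the KO minus WT difference of Cish was -0.74 (SE 0.54), 95% interval -1.87 to 0.39, and averaged over populations it was -0.58 (SE 0.32), limma adjusted p 0.857. Some runs of library numbers held both genotypes of a population. Within them, Cish was lower in KO in 4 of 6 comparisons and higher in 2, from -0.87 to 0.20. In the runs 81 to 88 and 101 to 106, all KO libraries were female and all WT libraries male. Genotype and sex cannot be told apart in the comparisons from those runs. The libraries of the run 115 to 120 were all male.

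The member with the smallest unadjusted p in 1 population was Socs4 in MPP2. It had 232, 622 and 380.2 normalized counts in KO MPP2 and 878, 548 and 1134 in WT MPP2. KO MPP2 replicate 2 lay above WT MPP2 replicate 2, and the other KO libraries lay below all WT libraries. The log2 difference was -1.10 (SE 0.39), unadjusted p 0.0119 and limma adjusted p 0.509, and it was -0.87 without WT MPP2 replicate 3, the library with B cell markers. Averaged over populations, Socs1 had the smallest unadjusted p, with a KO minus WT difference of -1.201 (SE 0.49), unadjusted p 0.0253, limma adjusted p 0.857 and mean levels of 53.1 normalized counts over the 9 KO libraries and 106 over the 11 WT libraries. Within runs, with the same limit from sex, Socs1 was lower in KO in 4 of 6 comparisons and higher in 2, from -1.50 to 0.78.

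Wide spread limited what could be seen for Socs3. It averaged 57.0 ± 58.9 normalized counts in KO LT-HSC (SD, n = 3) and 206 ± 206 in WT LT-HSC (SD, n = 4), a log2 difference of -1.94 (SE 1.204) with a 95% interval of -4.47 to 0.60. With the library labelled WT LT-HSC replicate 4 left out, that difference was -1.33. Socs7 had 131, 89.7 and 245 normalized counts in KO MPP2 and 106, 84.1 and 41.3 in WT MPP2, and 51.2, 126 and 103 in KO LT-HSC and 206, 185, 97.6 and 182 in WT LT-HSC. Its KO minus WT difference was 0.98 (SE 0.58) in MPP2 and -0.88 (SE 0.54) in LT-HSC, with overlapping libraries in both, and the limma interaction test of this gene had an unadjusted p of 0.0865 and was not called. Socs2, whose per-library values are given above, averaged 509 ± 355 normalized counts in KO LT-HSC (SD, n = 3) and 708 ± 45.7 in WT LT-HSC (SD, n = 4), and its KO minus WT difference had 95% intervals of -3.90 to 1.88 in MPP2, -3.13 to 2.28 in MPP3 and -3.39 to 2.02 in LT-HSC. The spread of the MPP libraries makes these intervals wide. Within runs, with the same limit from sex, Socs2 was lower in KO in 3 of 6 comparisons and higher in 3. The KO minus WT difference of Socs5 was -0.77 (SE 0.56) in MPP2 and -0.78 (SE 0.53) in MPP3, with 95% intervals of -1.95 to 0.41 and -1.88 to 0.33, and neither was called. For Socs6 the 95% intervals of the KO minus WT difference were -0.85 to 0.79 in MPP2, -0.72 to 0.80 in MPP3 and -0.55 to 0.98 in LT-HSC.

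**Figure D3:**
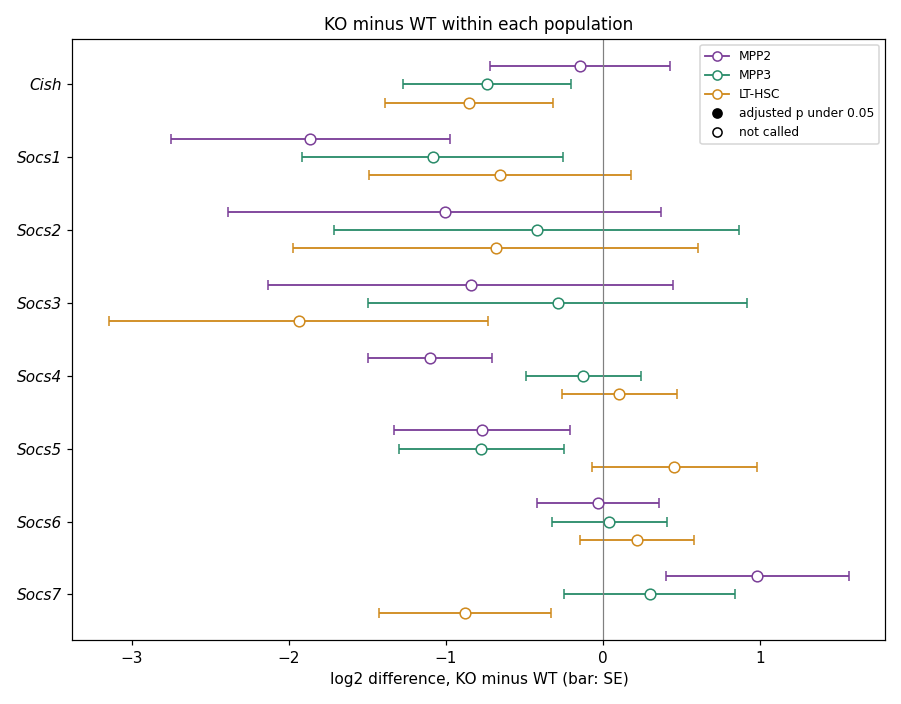
KO minus WT differences on the log2(normalized count + 1) scale for each of the 8 genes in MPP2, MPP3 and LT-HSC; bars are SE and open points did not pass an adjusted p of 0.05. All 24 points are open, and they range from -1.94 for Socs3 in LT-HSC to 0.98 for Socs7 in MPP2.

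Other genes of the pathway were followed in 5 lists with 65 genes, of which 62 were tested: receptors, JAKs and STATs, other inhibitors, partners of the SOCS box and STAT targets. Between KO and WT, 0 of the 62 were called by limma in MPP2, MPP3, LT-HSC or the average. Between populations, averaged over genotypes, 8 were lower and 0 higher in MPP2 than in LT-HSC, 6 were higher and 6 lower in MPP3 than in LT-HSC, and 2 were higher and 12 lower in MPP2 than in MPP3. The shares of all genes called are those given above for the same comparisons. The 8 lower in MPP2 than in LT-HSC became 2 without WT MPP2 replicate 2 or KO LT-HSC replicate 3, and 5 without KO MPP2 replicate 1, KO LT-HSC replicate 1 or 2, WT LT-HSC replicate 3 or the one labelled WT LT-HSC replicate 4. The 12 lower in MPP2 than in MPP3 became 6 without WT MPP2 replicate 2 and 7 without KO MPP3 replicate 3, and the 2 higher became 1 without KO MPP3 replicate 1 or WT MPP2 replicate 1 or 2. Over all 30 refits the lower counts ran from 2 to 16 in MPP2 against LT-HSC, from 4 to 8 in MPP3 against LT-HSC and from 4 to 16 in MPP2 against MPP3. Calls named below without a qualification were kept in all 30 refits, which for these genes were chosen after seeing the data.

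Of the 24 receptor genes listed, 21 were tested. Ghr, the growth hormone receptor that SOCS2 restrains, averaged 40.8 ± 38.5 normalized counts in MPP3 and 196 ± 78.8 in LT-HSC (SD, n = 7 each), a difference of -3.47 (SE 0.78), limma adjusted p 0.00777, kept in 28 of 30 refits and lost in both edgeR fits. Il11ra1, an interleukin 11 receptor, was lower in MPP2 than in LT-HSC, with a difference of -1.26 (SE 0.33), and that call was lost in both edgeR fits and without WT MPP2 replicate 2 or KO LT-HSC replicate 3.

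The 6 receptor genes that were higher in MPP3 than in LT-HSC were Il10ra, Il10rb, Ifnar2, Csf2rb, Il7r and Il6ra. The interleukin 10 receptor genes differed by 6.19 (SE 0.99) for Il10ra and 1.53 (SE 0.24) for Il10rb. The interferon receptor gene Ifnar2 differed by 1.10 (SE 0.19) and the interleukin 7 receptor gene Il7r by 5.18 (SE 1.05). Il7r is a lymphoid receptor, and the summed B cell markers were 3110 to 5370 normalized counts in KO MPP3 and 4740 to 9365 in WT MPP3, against 538 to 2522 in KO LT-HSC and 706 to 899.8 in WT LT-HSC. Their part was not tested. Csf2rb, the shared beta chain of the interleukin 3 and GM-CSF receptors, averaged 605 ± 159.9 normalized counts in MPP3 and 117 ± 105 in LT-HSC (SD, n = 7 each), a difference of 2.64 (SE 0.52). Il6ra, the interleukin 6 receptor, averaged 290.4 ± 69.1 in MPP3 and 68.8 ± 47.9 in LT-HSC (SD, n = 7 each), a difference of 2.43 (SE 0.51). Both are receptors of myeloid cells, and the precursor marker sums given above for MPP3 moved with them; their part was not tested. The median log2 difference of the 21 receptor genes was 0.81 for MPP3 minus LT-HSC, against 0.00 for all genes. Csf3r, the G-CSF receptor that SOCS3 restrains, averaged 285 ± 308 normalized counts in MPP2 (SD, n = 6) and 1396 ± 299 in MPP3 (SD, n = 7), a difference of -3.52 (SE 0.73), limma adjusted p 0.00734, lost in 1 of 30 refits, edgeR on 18 libraries. Ifnar2 and Il2rg, the common gamma chain gene, were also lower in MPP2 than in MPP3, with differences of -1.06 (SE 0.19) and -1.32 (SE 0.29). Il10ra (-5.37 (SE 1.03)) and Il10rb (-1.12 (SE 0.25)) were lower too and were lost in edgeR fits alone. The Il4ra difference of -1.73 (SE 0.43) was lost in 6 of 30 refits, among them those without KO MPP3 replicate 1 or 3, KO MPP2 replicate 3 or WT MPP2 replicate 2. The Csf2rb difference of -2.11 (SE 0.54) was lost in 7, among them those without KO MPP2 replicate 1, WT MPP2 replicate 1 or 2, or KO MPP3 replicate 2 or 3. Il7r, at -3.78 (SE 1.08), was kept in only 9 of 30.

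Of 11 JAK and STAT genes, Jak2, a kinase of many cytokine receptors, averaged 529.6 ± 67.7 normalized counts in MPP3 and 1059 ± 163 in LT-HSC (SD, n = 7 each), a difference of -0.999 (SE 0.19), limma adjusted p 0.00202. Stat5a averaged 851 ± 182 normalized counts in MPP3 and 1350.3 ± 272 in LT-HSC (SD, n = 7 each), a difference of -0.68 (SE 0.19), limma adjusted p 0.0338, but was kept in only 16 of 30 refits and was lost, among others, when the library labelled WT LT-HSC replicate 4 was left out. It was higher in MPP2 than in MPP3, with a difference of 0.77 (SE 0.20) (limma adjusted p 0.0247, kept in 25 of 30 and lost without KO MPP3 replicate 1, WT MPP2 replicate 1 or 2, or KO MPP2 replicate 3). Stat2 was lower in MPP2 than in LT-HSC, with a difference of -1.09 (SE 0.32) that was kept in 14 of 30 refits. Stat6 was lower in MPP2 than in MPP3, with a difference of -0.77 (SE 0.22) that was kept in 7 of 30. None of the 4 partners of the SOCS box (Elob, Eloc, Cul5 and Rnf7) was called in any comparison, and of the 12 other inhibitors Ptpn6, which encodes the phosphatase SHP-1, was called once, lower in MPP2 than in MPP3, with a difference of -0.64 (SE 0.17) and lost without KO MPP3 replicate 1 or 3, KO MPP2 replicate 1, or WT MPP2 replicate 1 or 2.

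Of 14 further STAT targets, Ccnd2, a cell cycle cyclin, was lower in both progenitors. It averaged 5765 ± 1018 normalized counts in MPP2 (SD, n = 6) and 5625 ± 578 in MPP3 (SD, n = 7), against 8621 ± 998 in LT-HSC (SD, n = 7), with limma adjusted p of 0.00205 and 0.000354. Bcl2l1, which encodes the survival factor BCL-XL, averaged 250.4 ± 51.9 in MPP3 and 796 ± 209.6 in LT-HSC (SD, n = 7 each), a difference of -1.63 (SE 0.33), limma adjusted p 0.00371. Junb, a subunit of AP-1, was lower in MPP2 than in LT-HSC, with a difference of -1.64 (SE 0.42) that was lost in both edgeR fits and without WT MPP2 replicate 2 or KO LT-HSC replicate 3. The MPP2 minus LT-HSC differences of Bcl3 (-2.001 (SE 0.55)), Irf1 (-1.17 (SE 0.32)) and Id1 (-4.01 (SE 1.13)) were called and were kept in 18, 18 and 15 of 30 refits. All 3 calls were lost without any 1 of KO MPP2 replicate 1, WT MPP2 replicate 2, KO LT-HSC replicates 1 and 3, or the library labelled WT LT-HSC replicate 4. Bcl3 was also lower in MPP2 than in MPP3, with a difference of -2.43 (SE 0.55), and so was Irf1, at -1.36 (SE 0.32), which was lost in both edgeR fits and without WT MPP2 replicate 1 or 2. Over the 14 targets the median log2 difference was -1.09 for MPP2 minus LT-HSC and -0.29 for MPP3 minus LT-HSC, against -0.11 and 0.00 for all genes. The summed level of 8 immediate early genes, Junb not among them, was 15173 to 19672 normalized counts in KO MPP2 and 7398 to 22658 in WT MPP2, against 30213 to 62360 in KO LT-HSC and 22596 to 78481 in WT LT-HSC, and its part in the MPP2 differences was not tested.

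For the 3 members called in a population comparison, the most similar of 9529 protein-coding genes were found by Pearson's r of log2(normalized count + 1) over the 20 libraries, which share groups and depth differences. Nearest to Cish were Uba7, the activating enzyme for ISG15, at r of 0.89, Eng, a coreceptor for TGF-beta, at 0.87, and Zfp111 at 0.87. After the group means were removed, r was 0.66 for Uba7, 0.74 for Eng and 0.40 for Zfp111. Nearest to Socs2 were Plscr4 at 0.90, Tgm2 at 0.89 and Lpl, lipoprotein lipase, at 0.88, with 0.71, 0.62 and 0.76 after the group means were removed. Nearest to Socs1 were Hadh, a fatty acid oxidation enzyme, at 0.92, Gimap8 at 0.91 and Il11ra1 at 0.90, with 0.88, 0.76 and 0.85 after the group means were removed.

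Among the members themselves, the STAT5 targets Cish and Socs2 had an r of 0.64 over the 20 libraries and -0.08 once group means were removed. Socs1 and Socs5 had an r of 0.68, and 0.37 after the group means were removed. Socs4 and Socs6 had 0.51 and 0.64, and Socs3 and Socs7 had 0.48 and 0.63.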

How the data were processed

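RNA of 20 libraries was sequenced by the authors after Nextera XT library preparation, per the labels' protocols. Per the submitters' processing notes the tools were TopHat2 2.1.1, HTSeq 0.11.2 and DESeq, with the GRCm38 genome. The deposited signal is 1 size-factor-scaled read count per Ensembl gene and library, which the text calls a normalized count. Whole reads were recovered from it: 100.0% of values were whole within 1e-06 in the 18 libraries where the step of 1 read could be checked, while that step lies too near 1 in WT MPP2 replicate 2 and in the first WT MPP3 library. Reads in genes numbered 11163345 to 15189909, which were 18.5% to 21.4% of all entries, and the 5 summary entries (78.6% to 81.5%) were left out. Symbols were matched for 45143 of 45706 gene IDs. Scaling assumes comparable RNA per library, and multi-mapping or overlapping reads may be lost or shared.

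From there, log2(normalized count + 1) was fitted with limma 3.58.1 (R 4.3.3; trend and robust) as 6 group means over the 17160 genes kept by edgeR's filterByExpr. P-values were adjusted by Benjamini-Hochberg over all genes, and called means an adjusted p under 0.05. The added 1 draws differences of low genes toward 0, while libraries at or near 0 reads can widen them. For Socs2, the MPP3 minus LT-HSC difference was larger in size than the ratio of means implies. Alternatives were edgeR 4.0.16 and DESeq2 1.42.0 on recovered reads, voom, TMM scaling, a pseudocount of 16, no filter on low values, covariates for sex and for runs of library numbers, and leaving libraries out. The tests were checked on simulated data. Sex was read from the data. Limits from 0 reads take 3 reads as the highest count and cover counting error only.

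The members and the gene lists were chosen with earlier results of these data known. Named genes were the 8 members, Hopx, the pathway genes called in a genotype-averaged population comparison (1 is counted but not reported here), and the 3 protein-coding genes (mean log2 CPM at least 3) closest to each called member. Socs2, Socs5, Socs6 and Socs7 had no promoter sequence matched and are named only.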

Additional observations from a re-analysis of the deposited data

How the results depend on the processing

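Over 30 alternatives (10 other settings and 20 fits that leave out 1 library each), the 64 member differences larger than their SE never changed direction. Counted over these 64 differences and the 30 alternatives, 1850 stayed on the same side of the threshold, 51 lost a call and 19 gained one. Differences smaller than their SE are not in this count. For MPP2 against LT-HSC averaged over genotypes, where limma called 2 members, a pseudocount of 16 gave 4, edgeR on 20 libraries 1 and edgeR on 18 libraries 0, and leaving out single libraries gave 1 to 3. For MPP2 against MPP3, where 1 was called, DESeq2 gave 2, and edgeR on 20 libraries, edgeR on 18 libraries, voom and the library-number covariate gave 0, with 0 to 1 when single libraries were left out. For MPP3 against LT-HSC the count stayed at 2 throughout when single libraries were left out. Within WT, where 3 calls were made over the 3 comparisons, edgeR on 18 libraries gave 1, and leaving out single libraries gave 2 to 3. Within KO, where 2 were made, testing every gene with a read gave 1, the sex covariate 1, leaving out the libraries numbered 52 to 54 also 1, edgeR on 20 libraries 0, edgeR on 18 libraries 0 and the library-number covariate 0, with 0 to 3 when single libraries were left out. The KO minus WT counts were 0 in all 30. The cause of these changes was not tested. Alternatives for pathway genes and Gm17041 were chosen after seeing the data.

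The number of all genes called varied more: MPP2 against LT-HSC 1256 (261 to 1908 over the alternatives), MPP3 against LT-HSC 1270 (823 to 2482) and MPP2 against MPP3 1180 (356 to 1560), averaged over genotypes. In WT alone these were 143 (0 to 434), 681 (236 to 1608) and 74 (10 to 407), and in KO alone 206 (5 to 863), 327 (161 to 819) and 478 (109 to 1154). KO minus WT gave 2 in MPP2 (0 to 338), 1 in MPP3 (0 to 22), 1 in LT-HSC (0 to 21) and 2 in the average (0 to 72). No paired analysis was possible because replicate numbers follow accession order only and pair no samples; the runs of library numbers entered as a covariate instead. Socs1 had the fewest reads of the members, 1715 over 20 libraries, and Cish the most, 14267.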

Other observations

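Immediate early genes such as Fos, Jun and Egr1 respond within minutes to handling and to cytokines. Over the 20 libraries, the level of Socs6 and the summed level of 8 immediate early genes had a Pearson's r of -0.48 on the log2 scale, and of -0.65 after group means were removed. For Socs4 these values were -0.14 and -0.45, and for Cish 0.39 and 0.09. The libraries share groups and depth, and the values are given as a description.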
